A study of Mus musculus with 6 samples.

Results

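The chaperone and unfolded protein response genes are 40 genes, out of 27514 genes shared by the matrices of all 3 pools, that help proteins fold or report on their folding. They were taken as named lists by their known function, with earlier results of these data known. Of these, 18 act in the cytosol and nucleus or in mitochondria and are called the cytosolic list below, and 22 act in or on the endoplasmic reticulum (ER) and are called the ER list. In the cytosol, Hsp70 and Hsp90 proteins bind unfolded chains together with J-domain co-chaperones and nucleotide exchange factors, and the transcription factor HSF1 raises their genes when misfolded protein builds up. In the ER, the chaperone BiP, encoded by Hspa5, binds secretory and membrane proteins and also holds the stress sensors IRE1, PERK and ATF6. When unfolded protein draws BiP away, these sensors raise ER chaperones, lectins and degradation factors and slow translation. Neurons that secrete peptides send much of their protein through the ER, and ER stress in the hypothalamus is known from obesity research.

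The series profiled single nuclei of mouse hypothalamus, sorted by fluorescence for NeuN, a protein of neuronal nuclei. Mice with diet-induced obesity on a high-fat diet (DIO), chow-fed ob/ob mice, which lack functional leptin (OB), and chow-fed mice (chow) each formed 1 pool, and in every pool 1 hashtag marked mice given rapamycin, an inhibitor of the kinase complex mTORC1, and 1 hashtag marked mice given vehicle. Age, sex, dose and the number of mice per hashtag are not given in the labels, and each of the 6 hashtags is therefore 1 sample. Values are UMIs summed over the neuronal nuclei of a hashtag and scaled to a total of 1000000 in each sum (CPM). These scales carry no correction for gene length, so levels are compared between samples and not between genes.

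The pools held 11405 (DIO), 12284 (OB) and 10853 (chow) barcodes, with medians of 5572, 2804.5 and 5826 UMIs. Neuronal sums ranged from 29310348 to 33978672 UMIs in DIO and chow but were 16158927 UMIs for OB rapamycin and 5796450 UMIs for OB vehicle. In OB, 3731 nuclei carried no hashtag call, against 406 in DIO and 191 in chow. Neurons made up 81.8% of OB rapamycin nuclei and 62.1% of OB vehicle nuclei, and 94.6% to 95.6% in the other 4 hashtags. Rbfox3, which encodes NeuN, stood at 331 CPM with rapamycin and 328 CPM with vehicle in DIO neurons, at 278 and 281 CPM in OB neurons, and at 209 and 195 CPM in chow neurons, against 37.9 to 145 CPM in nuclei of non-neuronal clusters. Markers of other cells were still present in the neuronal sums. The 5 pituitary markers summed to 12.1 CPM with rapamycin and 28.5 CPM with vehicle in OB neurons and to at most 7.53 CPM elsewhere. The 7 astrocyte markers summed to 50.1 to 62.8 CPM and the 6 oligodendrocyte markers to 45.9 to 85.1 CPM. The 6 microglia markers summed to 158 CPM with rapamycin and 134 CPM with vehicle in DIO, to 183 and 151 CPM in OB and to 114 and 113 CPM in chow, so their sum was higher with rapamycin in the obese pools, as most members were. P2ry12 and Cx3cr1 made up nearly all of it, while Csf1r was at 0.518 to 1.49 CPM, C1qa and C1qb were at 0 to 0.186 CPM and Tmem119 was at 0 in all 6 hashtags. Mitochondrially encoded RNA was 167 CPM with rapamycin and 196 CPM with vehicle in OB and 59.8 to 73.9 CPM in DIO and chow. The part of these differences in the results below was not tested.

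The binding sequences that textbooks assign to the 2 responses occurred in 1 list each, and promoters that carry them are shown for some of the genes named in the results below. RefSeq promoter windows of GRCm38.p6, from 250 bases before to 50 bases after each gene's start, were given for 32 of the 40 members. Hspa8, Hspa9, Hsp90aa1, Hsp90ab1, Hsf1, Hyou1, Manf and Atf6 have no entry in the table. The ER stress element, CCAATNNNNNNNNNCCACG on either strand, was present in 7 of 19 ER members with a window (Dnajc3, Hspa5, Hsp90b1, Pdia6, Calr, Canx and Syvn1) and in 0 of 13 cytosolic members, against 0.137% of all 27025 genes with a window. The heat shock element, GAANNTTCNNGAA on either strand, was present in 4 of 13 cytosolic members (Hspd1, Hspe1, Hsph1 and Dnajb6) and in 0 of 19 ER members, against 0.662% of all genes. Hspd1 and Hspe1 share 1 such stretch between them, since their windows overlap. Herpud1 alone among the members held TGATGNAA, the C/EBP-ATF response element read by ATF4 and CHOP, which 4.51% of all genes hold. No member held TGACGTGG, the unfolded protein response element, which 0.714% of all genes hold. A match is a string of letters and does not show that a factor binds there.

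Capitals mark the fixed letters of the ER stress element in the first 4 promoters and of the heat shock element in the last. Hspa5 encodes BiP (chr2:34771840-34772139, plus strand), Hsp90b1 the ER Hsp90 protein GRP94 (chr10:86705395-86705694, minus strand), Canx the membrane lectin calnexin (chr11:50325624-50325923, minus strand) and Dnajc3 the ER co-chaperone P58IPK (chr14:118937682-118937981, plus strand). Hsph1 encodes the cytosolic exchange factor HSP110 (chr5:149636266-149636565, minus strand). The element began 65 bases before the start in Hspa5, 145 before it in Canx and 105 before it in Dnajc3. It was present at 212 and 107 bases before the start in Hsp90b1. In Hsph1 it began at base 16 after the start of this window's transcript.
Hspa5: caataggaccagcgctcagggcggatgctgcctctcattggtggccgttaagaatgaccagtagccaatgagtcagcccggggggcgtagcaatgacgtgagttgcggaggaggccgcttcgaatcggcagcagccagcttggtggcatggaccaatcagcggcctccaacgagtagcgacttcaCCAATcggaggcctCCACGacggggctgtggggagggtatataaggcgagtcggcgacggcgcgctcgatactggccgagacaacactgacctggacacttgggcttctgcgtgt
Hsp90b1: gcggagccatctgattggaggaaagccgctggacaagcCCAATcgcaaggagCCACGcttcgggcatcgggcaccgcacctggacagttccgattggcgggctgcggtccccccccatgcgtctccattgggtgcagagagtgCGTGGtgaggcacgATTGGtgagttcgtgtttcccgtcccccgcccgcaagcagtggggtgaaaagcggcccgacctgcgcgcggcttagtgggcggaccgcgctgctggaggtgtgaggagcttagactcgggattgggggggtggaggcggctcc
Canx: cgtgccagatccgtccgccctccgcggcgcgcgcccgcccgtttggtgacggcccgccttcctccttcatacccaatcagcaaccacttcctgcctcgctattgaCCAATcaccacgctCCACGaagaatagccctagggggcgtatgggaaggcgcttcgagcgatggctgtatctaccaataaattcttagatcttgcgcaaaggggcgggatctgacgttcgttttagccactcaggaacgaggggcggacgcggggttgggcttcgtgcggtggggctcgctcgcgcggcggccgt
Dnajc3: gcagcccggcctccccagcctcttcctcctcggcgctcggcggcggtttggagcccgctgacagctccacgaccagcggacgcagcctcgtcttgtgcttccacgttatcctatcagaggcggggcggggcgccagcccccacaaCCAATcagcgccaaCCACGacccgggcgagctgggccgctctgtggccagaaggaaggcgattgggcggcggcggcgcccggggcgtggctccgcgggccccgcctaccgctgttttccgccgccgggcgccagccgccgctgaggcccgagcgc
Hsph1: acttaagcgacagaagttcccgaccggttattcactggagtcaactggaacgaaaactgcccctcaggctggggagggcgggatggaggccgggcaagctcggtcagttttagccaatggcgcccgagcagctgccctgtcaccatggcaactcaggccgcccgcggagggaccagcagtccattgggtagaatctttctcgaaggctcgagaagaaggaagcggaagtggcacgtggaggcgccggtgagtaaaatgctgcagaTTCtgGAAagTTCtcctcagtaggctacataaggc

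The first comparison asked how the members stood with rapamycin against vehicle within each pool. In DIO and OB most members of both lists were higher with rapamycin, by small ratios, and in chow most were slightly lower. Of 17 cytosolic members measured in each pool, 14 were higher in DIO, 15 were higher in OB and 15 were lower in chow. Of the ER members, 16 of 22 were higher in DIO, 15 of 21 were higher in OB and 18 of 21 were lower in chow. Median log2 ratios were 0.13 (DIO), 0.20 (OB) and -0.08 (chow) for the cytosolic list and 0.08, 0.15 and -0.05 for the ER list, while those over all genes measured were 0.04, 0.04 and -0.03. A member counts as measured when its 2 sums together hold 50 UMIs or more. Hspb1, which encodes the small heat shock protein HSP27, missed this in every pool, at 0 to 0.619 CPM. Sdf2l1, an ER co-chaperone, passed it only in DIO, at 0.942 CPM with rapamycin against 0.614 CPM with vehicle.

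With 1 hashtag per treatment there is no test within a pool. A ratio is therefore given with its exact 95% interval for counting error, which covers neither differences between mice nor those between nuclei, and is counted when it passes 1.2-fold, a log2 ratio of 0.26. In OB, 14 of 38 members were past this fold higher and 0 were past it lower, against 13.2% and 8.66% of the 13563 genes measured. In DIO, 5 of 39 were past it higher and 0 lower, against 13.4% and 5.61% of 15622 genes. In chow, 0 of 38 were past it either way, against 3.93% higher and 6.96% lower of 15374 genes. The DIO count is near its background, and that in OB is above it. The OB ratios depend on the use of neurons only. With all assigned nuclei the OB medians were -0.01 (cytosolic) and 0.00 (ER), and the OB ratio of Hspa5 described below was -0.08 in place of 0.64. Ratios above 0 were also common among all genes, at 59.4% in DIO, 58.6% in OB and 39.7% in chow, where 60.3% were below 0. Of the members measured in all 3 pools, 11 of 21 ER and 10 of 17 cytosolic members were lower in chow and higher in both other pools, against 25.2% of 13513 genes.

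**Figure D1:**
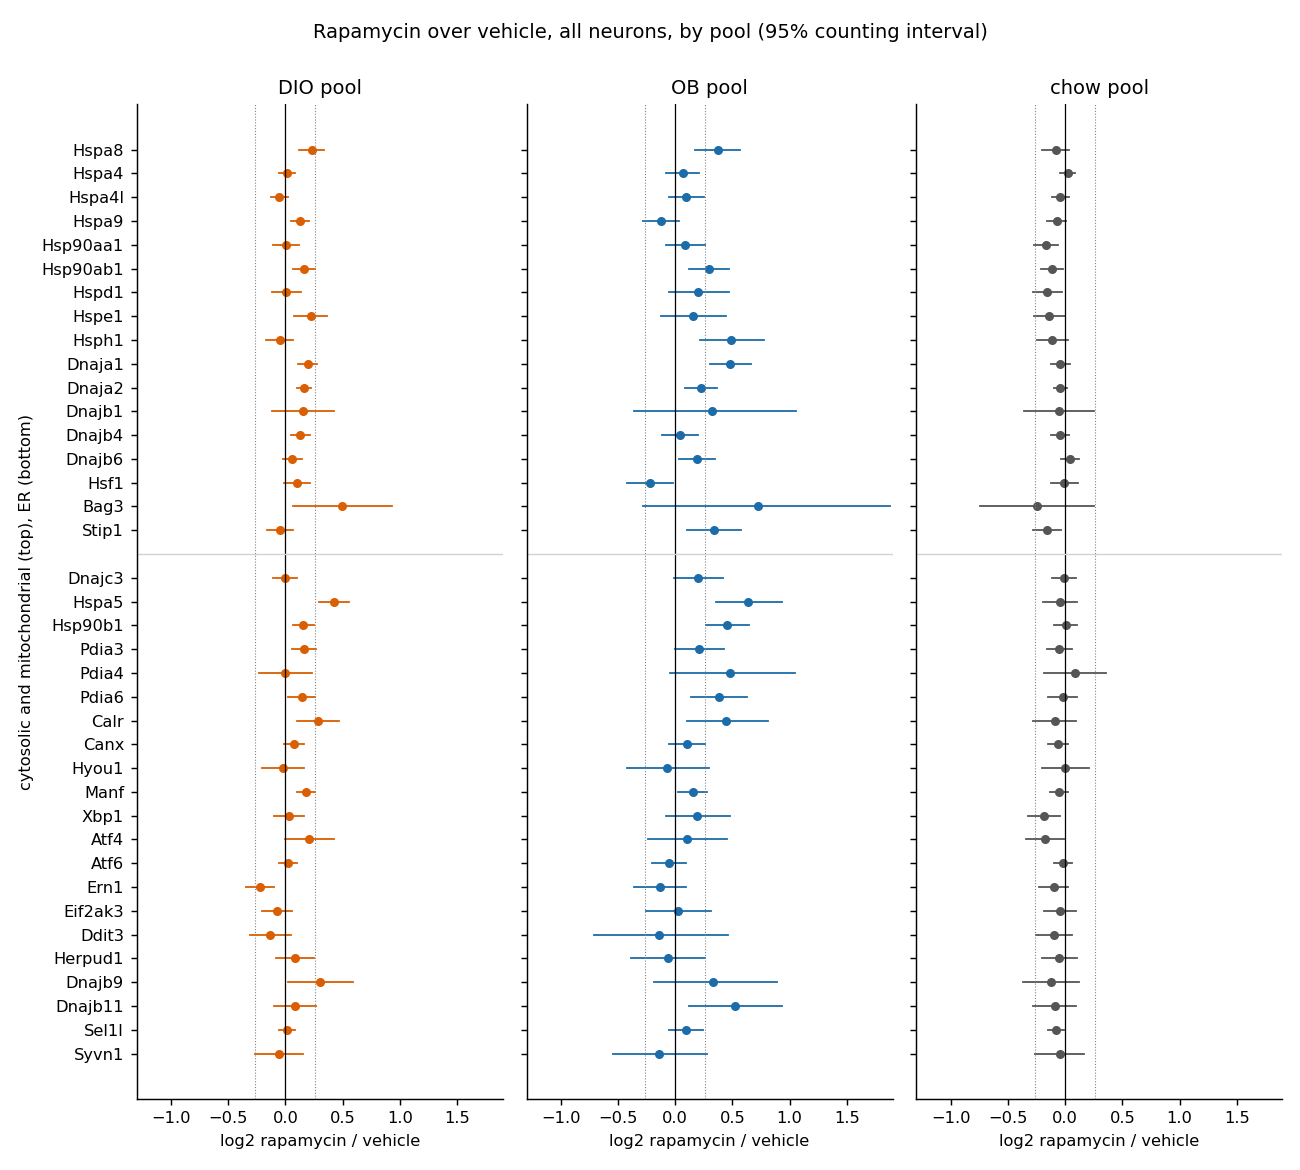
Log2 ratio of CPM, rapamycin over vehicle, in all neurons of the DIO, OB and chow pools (x axis) for 38 members (rows, cytosolic list and ER list). Points are ratios, bars are 95% intervals for counting error and dotted lines mark 1.2-fold. Hspb1 and Sdf2l1 are left out for low counts. Hspa5 lies right of 0 in DIO and OB and at -0.05 in chow.

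Among ER chaperones, Hspa5, the BiP gene (ENSMUSG00000026864), stood at 33.9 CPM with rapamycin against 25.3 CPM with vehicle in DIO, at 32.8 CPM with rapamycin against 21.1 CPM with vehicle in OB, and at 23.4 CPM with rapamycin against 24.2 CPM with vehicle in chow. Both rapamycin values in the obese pools lay above all 4 other values, which spanned 21.1 to 25.3 CPM. In log2 terms this was a ratio of 0.42 in DIO (interval 0.29 to 0.56), of 0.64 in OB (0.35 to 0.94) and of -0.05 in chow (-0.20 to 0.10). In the annotation Hspa5 overlaps Rabepk, and reads from the overlap may not be assigned with certainty. Hsp90b1, which encodes GRP94, stood at 68.4 CPM with rapamycin against 61.3 CPM with vehicle in DIO, at 68.9 CPM with rapamycin against 50.4 CPM with vehicle in OB, and at 53.0 CPM with rapamycin against 52.9 CPM with vehicle in chow. This gave ratios of 0.16 (log2, 0.07 to 0.25) in DIO, 0.45 (0.27 to 0.64) in OB and 0.00 (-0.10 to 0.10) in chow. As for Hspa5, the 2 highest of the 6 values were those of the rapamycin hashtags in the obese pools.

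The ER lectin chaperone Calr was at 17.3 CPM with rapamycin against 14.2 CPM with vehicle in DIO, at 20.2 CPM with rapamycin against 14.8 CPM with vehicle in OB, and at 14.4 CPM with rapamycin against 15.3 CPM with vehicle in chow. The OB and DIO rapamycin hashtags again held the highest values, at log2 ratios of 0.45 in OB (0.10 to 0.81) and 0.28 in DIO (0.10 to 0.47). Its membrane-bound relative Canx differed less, with log2 ratios of 0.07 in DIO, 0.10 in OB and -0.06 in chow. Of the disulfide isomerases, Pdia6 stood at 39.9 CPM with rapamycin against 30.7 CPM with vehicle in OB, with a log2 ratio of 0.38 (0.14 to 0.63), and at 0.14 (0.03 to 0.26) in DIO. Pdia3 had log2 ratios of 0.16 in DIO and 0.21 in OB, and Pdia4 0.00 and 0.48, the last with an interval of -0.05 to 1.04. The J-domain protein Dnajb11 was at 16.1 CPM with rapamycin against 11.2 CPM with vehicle in OB, a log2 ratio of 0.52 (0.12 to 0.94), but at 0.08 in DIO. Dnajb9, another BiP co-chaperone, lay at a log2 ratio of 0.30 in DIO (0.02 to 0.59), 0.33 in OB (-0.19 to 0.89) and -0.12 in chow (-0.37 to 0.13). Dnajc3 was at 47.4 CPM with rapamycin and 47.5 CPM with vehicle in DIO and at 46.6 CPM with rapamycin against 40.5 CPM with vehicle in OB. Manf, a secreted ER stress factor, lay at 0.18 in DIO (log2, 0.10 to 0.26), 0.15 in OB (0.03 to 0.28) and -0.05 in chow.

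Among the sensors and factors of the unfolded protein response, Ern1 and Ddit3 were lower with rapamycin in each pool, while Xbp1 and Atf4 were higher in DIO and OB and lower in chow, as Hspa5 was. Ern1, which encodes the sensor IRE1, stood at 32.3 CPM with rapamycin against 37.8 CPM with vehicle in DIO, at 35.7 CPM with rapamycin against 39.2 CPM with vehicle in OB, and at 32.7 CPM with rapamycin against 35.0 CPM with vehicle in chow. It was lower with rapamycin in each pool, by a log2 ratio of -0.22 in DIO (-0.35 to -0.10), -0.14 in OB (-0.36 to 0.09) and -0.10 in chow (-0.22 to 0.03). Eif2ak3, the PERK gene, had log2 ratios of -0.07, 0.02 and -0.04, and Atf6, the third sensor, 0.02, -0.06 and -0.02, in DIO, OB and chow. Xbp1, whose mRNA is spliced by IRE1, was at 31.1 CPM with rapamycin against 30.4 CPM with vehicle in DIO, at 27.8 CPM with rapamycin against 24.3 CPM with vehicle in OB, and at 24.7 CPM with rapamycin against 28.0 CPM with vehicle in chow, where its log2 ratio was -0.18 (-0.33 to -0.04). These counts do not tell spliced from unspliced Xbp1 RNA. Atf4, the factor made when PERK slows translation, had log2 ratios of 0.21 in DIO, with 0 just inside its interval, 0.10 (-0.24 to 0.45) in OB and -0.18 (-0.34 to -0.01) in chow. Ddit3, its target CHOP, was lower with rapamycin in each pool by small ratios of -0.13, -0.14 and -0.10, with 0 inside every interval.

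The degradation factors of the ER were near 0 in each pool. Herpud1 had log2 ratios of 0.08 in DIO, -0.07 in OB and -0.05 in chow. Sel1l and Syvn1, which form a ubiquitin ligase that clears misfolded ER proteins, stood at 0.01 and -0.06 in DIO, 0.09 and -0.14 in OB, and -0.08 and -0.05 in chow. The ER exchange factor Hyou1 was between -0.07 and 0.00 in the 3 pools.

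Among the cytosolic Hsp70 proteins and their partners, Hspa8 (HSC70, made without stress) stood at 49.2 CPM with rapamycin against 41.96 CPM with vehicle in DIO, at 61.5 CPM with rapamycin against 47.6 CPM with vehicle in OB, and at 36.9 CPM with rapamycin against 39.1 CPM with vehicle in chow. On the log2 scale its ratio was 0.23 in DIO (0.12 to 0.34), 0.37 in OB (0.18 to 0.57) and -0.08 in chow (-0.20 to 0.04). Its J-domain partner Dnaja1 was at 79.8 CPM with rapamycin against 69.7 CPM with vehicle in DIO, at 77.3 CPM with rapamycin against 55.4 CPM with vehicle in OB, and at 73.2 CPM with rapamycin against 75.4 CPM with vehicle in chow. The OB vehicle value was the lowest of the 6, and the log2 ratio was 0.19 in DIO (0.11 to 0.28), 0.48 in OB (0.30 to 0.66) and -0.04 in chow (-0.13 to 0.04). Dnaja2 had log2 ratios of 0.16 in DIO, 0.22 in OB and -0.04 in chow, and Dnajb1, the main heat-inducible J protein, 0.15, 0.32 and -0.05, each with 0 inside its interval. Dnajb4 had 0.13, 0.04 and -0.04, and Dnajb6, which keeps aggregating proteins soluble, 0.06, 0.19 and 0.04.

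The exchange factor Hsph1 differed in OB only among the pools by more than 1.2-fold. It stood at 37.9 CPM with rapamycin against 39.2 CPM with vehicle in DIO, at 32.7 CPM with rapamycin against 23.3 CPM with vehicle in OB, and at 27.6 CPM with rapamycin against 29.8 CPM with vehicle in chow. The log2 ratio in OB was 0.49 (0.21 to 0.77), against -0.05 (-0.17 to 0.07) in DIO and -0.11 (-0.25 to 0.02) in chow, and whether these differ was not tested. Its relatives Hspa4 and Hspa4l were between -0.05 and 0.10 in all 3 pools. Bag3, a co-chaperone of autophagy, was low at 3.56 CPM with rapamycin against 2.53 CPM with vehicle in DIO, 2.85 CPM with rapamycin against 1.73 CPM with vehicle in OB and 2.14 CPM with rapamycin against 2.53 CPM with vehicle in chow. The wide intervals of its log2 ratio were 0.07 to 0.93 about 0.50 in DIO, -0.28 to 1.88 about 0.72 in OB and -0.74 to 0.25 about -0.24 in chow.

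Of the Hsp90 genes, the constitutive Hsp90ab1 was at 60.2 CPM with rapamycin against 53.8 CPM with vehicle in DIO, at 75.3 CPM with rapamycin against 61.4 CPM with vehicle in OB, and at 56.7 CPM with rapamycin against 61.5 CPM with vehicle in chow. Its log2 ratio was above 0 with its interval in DIO at 0.16 (0.07 to 0.26) and in OB at 0.29 (0.12 to 0.47), and below 0 in chow at -0.12 (-0.21 to -0.02). The inducible Hsp90aa1 was at 39.1 CPM with rapamycin and 39.0 CPM with vehicle in DIO, at 66.8 CPM with rapamycin against 62.8 CPM with vehicle in OB, and at 44.7 CPM with rapamycin against 50.2 CPM with vehicle in chow, with log2 ratios of 0.00, 0.09 and -0.17. Stip1, which joins Hsp70 to Hsp90, lay at a log2 ratio of -0.05 in DIO (-0.16 to 0.07), 0.34 in OB (0.11 to 0.58) and -0.16 in chow (-0.28 to -0.03). Hsf1, the gene of the heat shock factor itself, stood at 41.6 CPM with rapamycin against 38.9 CPM with vehicle in DIO, at 44.2 CPM with rapamycin against 51.6 CPM with vehicle in OB, and at 39.1 CPM with rapamycin against 39.3 CPM with vehicle in chow. In OB its log2 ratio of -0.22 (-0.42 to -0.02) was thus on the other side of 0 from most genes of its list.

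The mitochondrial chaperones of the same list showed ratios below 1.2-fold in each pool. Hspd1 and Hspe1, the HSP60 and HSP10 genes, had log2 ratios of 0.01 and 0.22 in DIO, 0.20 and 0.15 in OB and -0.16 and -0.14 in chow. Hspa9, the mitochondrial Hsp70, had 0.13, -0.12 and -0.08. RefSeq names 5 copies of Hspd1 and 7 of Hspe1 elsewhere in the genome, and 1 each of Hspa9, Dnaja1 and Dnajb6, so their levels are uncertain where reads could be split.

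**Figure D2:**
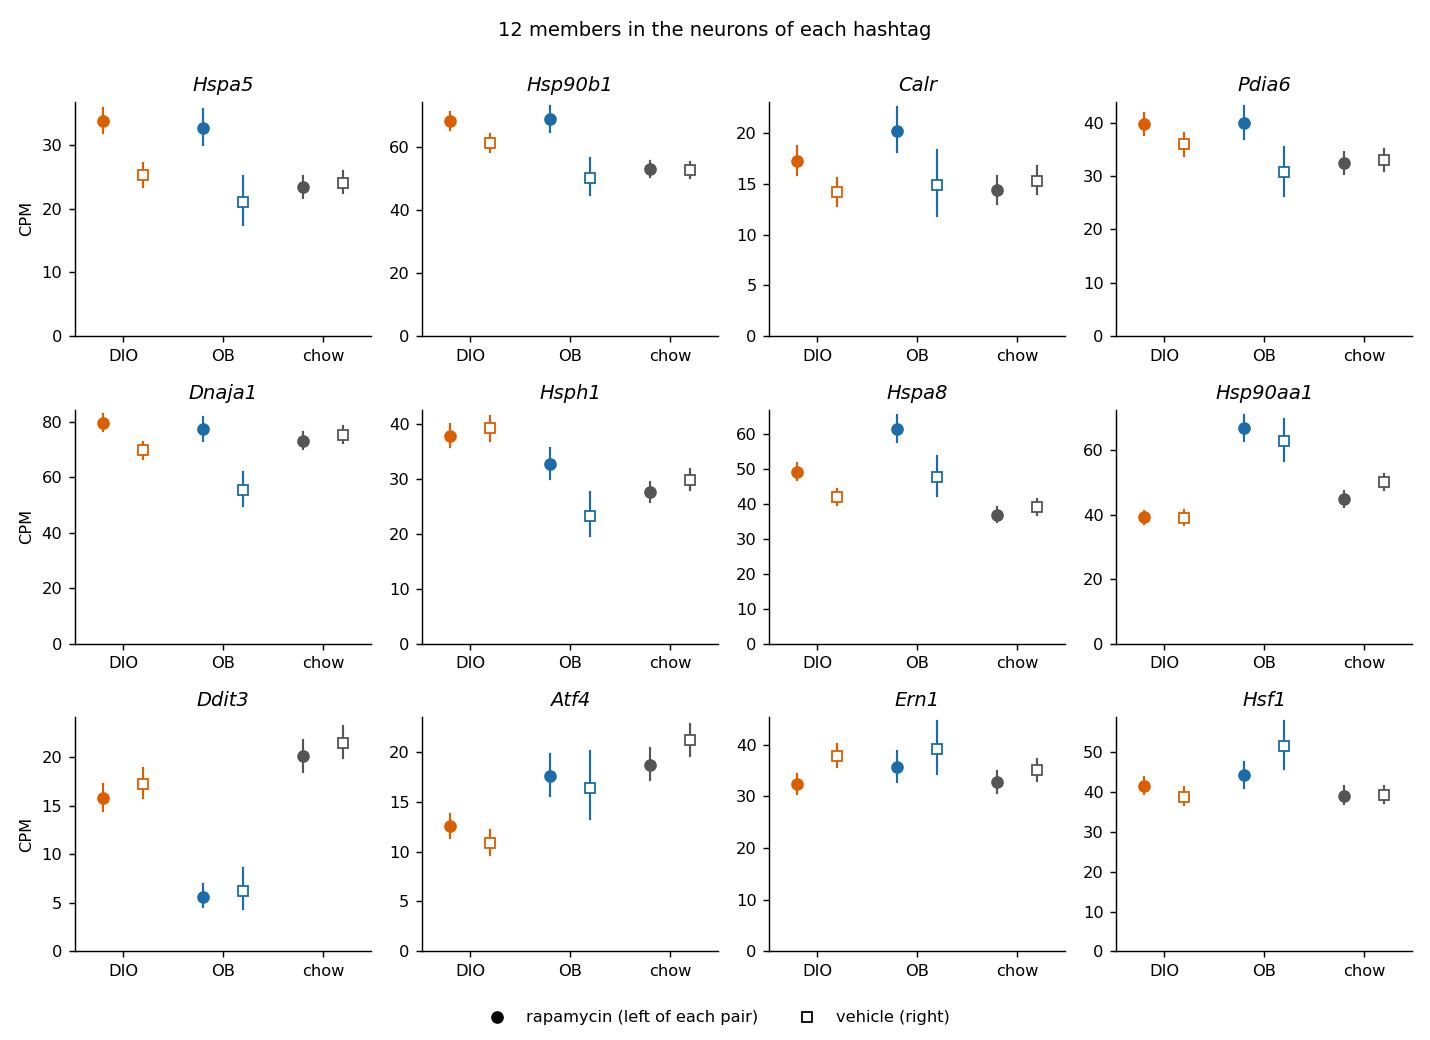
CPM in all neurons (y axis) for 12 members in the DIO, OB and chow pools (x axis), rapamycin as circles and vehicle as squares. Bars are exact 95% intervals for counting error. For Hspa5 the rapamycin values are 33.9 (DIO), 32.8 (OB) and 23.4 CPM (chow) against vehicle values of 25.3, 21.1 and 24.2 CPM.

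A change shared by the pools was tested in 1 fit of the 6 sums with the pool as a block, by edgeR's quasi-likelihood test with Benjamini-Hochberg adjustment over 17818 genes. Hspa5 rose with rapamycin, with a log2 change of 0.28 (SE 0.0752, adjusted p = 0.0433), and was the 1 member of 40 called, against 0.37% of all genes called and 0.101% called as higher. It was higher in 2 of 3 pools. Its SE draws on variance shared across genes, so it does not measure the spread of Hspa5 between pools. The call was lost with DESeq2, with no filter on low counts, without the block and with hashtags called by the tag ratio. It was also lost with all nuclei and when DIO or OB was left out. Each of these called 0 members, while 2 members were called without chow. DESeq2 and the fit without the block called 0 genes of any kind, so that loss is not particular to Hspa5. The other settings that lost the call held 7 to 66 genes. No cytosolic member was called. At an unadjusted p of at most 0.05 edgeR held 5 of 40 members, against 5.65% of all genes, the others being Dnaja1 (log2 0.17), Hsp90b1 (0.17), Hspa8 (0.15) and Ern1 (-0.16), and DESeq2 held 3, against 1% of all genes. Simulated data had the same dispersion for all genes, set in advance and not estimated from these sums. They held no difference between pools apart from depth and, for a changed gene, the same change in every pool. On them this fit found 59% of genes changed 1.5-fold and 79% of those changed 2-fold. These shares need not hold for these data, for smaller changes or for changes that differ between pools.

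Summed ratios within neuron clusters had mostly the same direction as the pool. Neuronal nuclei were grouped into 28 clusters made without the 40 members, and the UMIs of each list were summed per cluster and hashtag. In DIO the cytosolic sum was higher with rapamycin in 26 of 28 clusters and the ER sum in 23 of 28. In OB, where 23 clusters had at least 20 nuclei in both hashtags, each sum was higher in 20. In chow the cytosolic sum was lower in 22 of 28 clusters and the ER sum in 19. Median log2 ratios over clusters were 0.10 (DIO), 0.20 (OB) and -0.07 (chow) for the cytosolic list and 0.09, 0.18 and -0.04 for the ER list. Intervals clear of 0 were above it in 11 (cytosolic) and 9 (ER) clusters in DIO and in 9 and 6 in OB, and below it in 3 and 1 in chow and in 1 for the cytosolic list in OB. Hspa5 alone was higher in 21 of 27 clusters with enough UMIs in DIO, in 12 of 13 in OB and in 10 of 23 in chow. Clusters of 1 hashtag share its library and its mice, so these counts do not replicate the treatment.

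**Figure D3:**
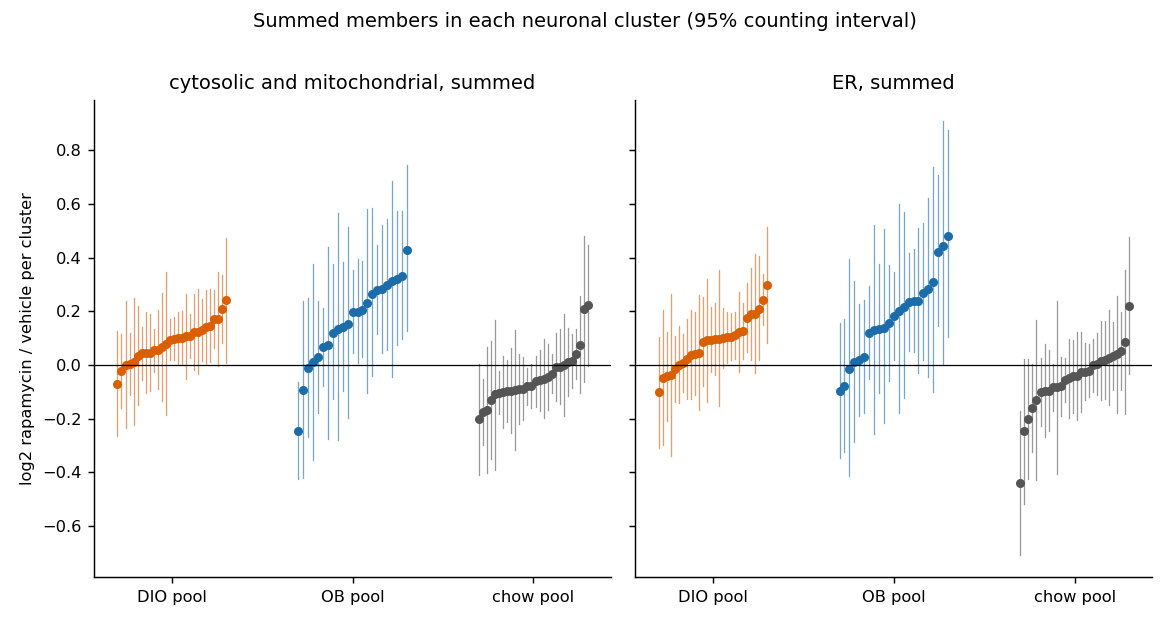
Log2 ratio of summed CPM of each list, rapamycin over vehicle, in each neuron cluster of the DIO, OB and chow pools, for the cytosolic list (left) and the ER list (right). Points are clusters in rising order within a pool and vertical bars are 95% intervals for counting error. The medians of the cytosolic list are 0.10 in DIO, 0.20 in OB and -0.07 in chow.

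Within nuclei called glutamatergic from Slc17a6, the median log2 ratios with rapamycin were 0.11 (DIO), 0.09 (OB) and -0.04 (chow) for the cytosolic list and 0.14, 0.02 and -0.08 for the ER list. In GABAergic nuclei, called from Slc32a1, they were 0.19 in DIO and -0.07 in chow for the cytosolic list and 0.23 and -0.05 for the ER list. In OB only 10 cytosolic and 6 ER members reached 50 UMIs in these nuclei, with medians of 0.01 and -0.04. The OB medians of both lists were smaller within transmitter classes than over all neurons, but they rest on fewer UMIs and fewer members. In glutamatergic nuclei they cover 15 cytosolic and 18 ER members, against 17 and 21 in all neurons. Whether ratios of the same members differ was not tested.

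The second comparison set the obese pools against chow. Each group is 1 library here. The OB matrix was made with Cell Ranger 7.0.1 and lists 31053 genes, while those of the other pools were made with 6.0.0 and list 27998. Group, library and, for OB, software version and gene set therefore cannot be told apart. Both contrasts share the chow sums, and the vehicle values of each pool also enter the rapamycin ratios above. In rapamycin neurons the list medians of OB over chow were 0.06 (cytosolic) and 0.12 (ER) and those of DIO over chow 0.09 for both lists, against 0.01 and 0.02 over all genes. In vehicle neurons the medians of OB over chow were -0.28 for the cytosolic list, with 14 of 17 lower, and -0.20 for the ER list, with 15 of 21 lower, against -0.04 over all genes, of which 55.4% were lower. Those of DIO over chow were -0.11 and -0.03, against -0.04. The DIO value of the ER list in vehicle neurons is close to 0, at -0.002 with TMM scaling and 0.02 with Dnajc3 moved to the cytosolic list. In rapamycin neurons 10 members were past 1.2-fold higher and 4 lower of 38 in OB, against 21.7% and 16.5% of all genes, and 12 higher and 4 lower of 39 in DIO, against 20.8% and 16.4%. In vehicle neurons 4 members were past it higher and 15 lower of 38 in OB, against 19.3% and 24.3%, and 2 higher and 8 lower of 38 in DIO, against 19.9% and 26.8%.

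The lowest member in OB was Ddit3, the CHOP gene. It stood at 5.63 CPM with rapamycin and 6.21 CPM with vehicle in OB, at 15.8 CPM with rapamycin and 17.3 CPM with vehicle in DIO, and at 20.1 CPM with rapamycin and 21.5 CPM with vehicle in chow. All 4 values of the obese pools lay below both chow values, and OB lay below DIO. The log2 ratios of OB over chow were -1.84 (-2.17 to -1.52) in rapamycin and -1.79 (-2.32 to -1.31) in vehicle neurons, and those of DIO over chow -0.35 in rapamycin and -0.32 in vehicle neurons. Ddit3 overlaps Mars1 and Mbd6 in the annotation. Mars1, under its older name Mars, was at 9.10 CPM with rapamycin and 6.56 CPM with vehicle in OB, against 7.52 and 7.50 CPM in chow, and Mbd6 at 42.6 and 50.9 CPM in OB, against 34.6 and 37.4 CPM in chow. How each version and its gene set assigned reads of the overlap was not tested.

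Dnaja2, a J-domain partner of Hsp70, was also ordered by pool in both treatments. It stood at 110.0 CPM with rapamycin and 94.4 CPM with vehicle in OB, at 142.6 CPM with rapamycin and 127.7 CPM with vehicle in DIO, and at 171.7 CPM with rapamycin and 176.7 CPM with vehicle in chow. Log2 ratios over chow were -0.64 and -0.90 in OB and -0.27 and -0.47 in DIO. Atf4 was lowest in DIO, at 12.5 CPM with rapamycin and 10.9 CPM with vehicle, against 17.6 and 16.4 CPM in OB and 18.7 and 21.1 CPM in chow, and its log2 ratio of DIO over chow was -0.58 in rapamycin and -0.96 in vehicle neurons. Manf was highest in OB, at 131.6 CPM with rapamycin and 118.5 CPM with vehicle, against 96.5 and 85.2 CPM in DIO and 90.1 and 93.5 CPM in chow. Hsp90aa1 and Hspa8 were higher in OB than in chow under both treatments, with log2 ratios of 0.58 and 0.74 in rapamycin and 0.32 and 0.28 in vehicle neurons. The same held for Hsf1, at 0.18 and 0.39. For Hspa5 the ratio over chow depended on the treatment, at 0.49 in rapamycin and -0.20 in vehicle neurons of OB and at 0.54 and 0.07 in DIO. Hsph1 was higher in DIO than in chow under both treatments, at 0.46 and 0.39, while in OB it stood at 0.24 with rapamycin and -0.36 with vehicle.

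Among the other members with high or low ratios in vehicle neurons, those lower in OB were Dnajb1 (-0.58), Bag3 (-0.55), Dnajb11 (-0.53), Dnajb9 (-0.47), Dnaja1 (-0.45), Hspe1 (-0.43), Hspa4 (-0.40), Hspd1 (-0.37) and Atf4 (-0.37). Those higher were Hyou1 (0.25), Ern1 (0.16), Canx (0.08), Atf6 (0.07) and Syvn1 (0.05), none of them past 1.2-fold. Each value sets 1 vehicle hashtag against another, and Bag3 and Dnajb1 rest on few UMIs in OB vehicle. Not all kept their side with rapamycin, where Dnaja1 and Bag3 were higher in OB than in chow and Atf4 was lower. The cytosolic median of OB over chow was 0.06 with rapamycin and -0.28 with vehicle. In DIO, Dnajb9 (-0.62), Dnajb4 (-0.47), Hspe1 (-0.36), Hsp90aa1 (-0.36), Herpud1 (-0.32), Hsp90ab1 (-0.19) and Sel1l (-0.18) were lower than in chow. Pdia4 (0.46), Dnajb1 (0.25), Hyou1 (0.24), Hsp90b1 (0.21), Eif2ak3 (0.21), Xbp1 (0.12) and Pdia6 (0.12) were higher there.

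**Figure D4:**
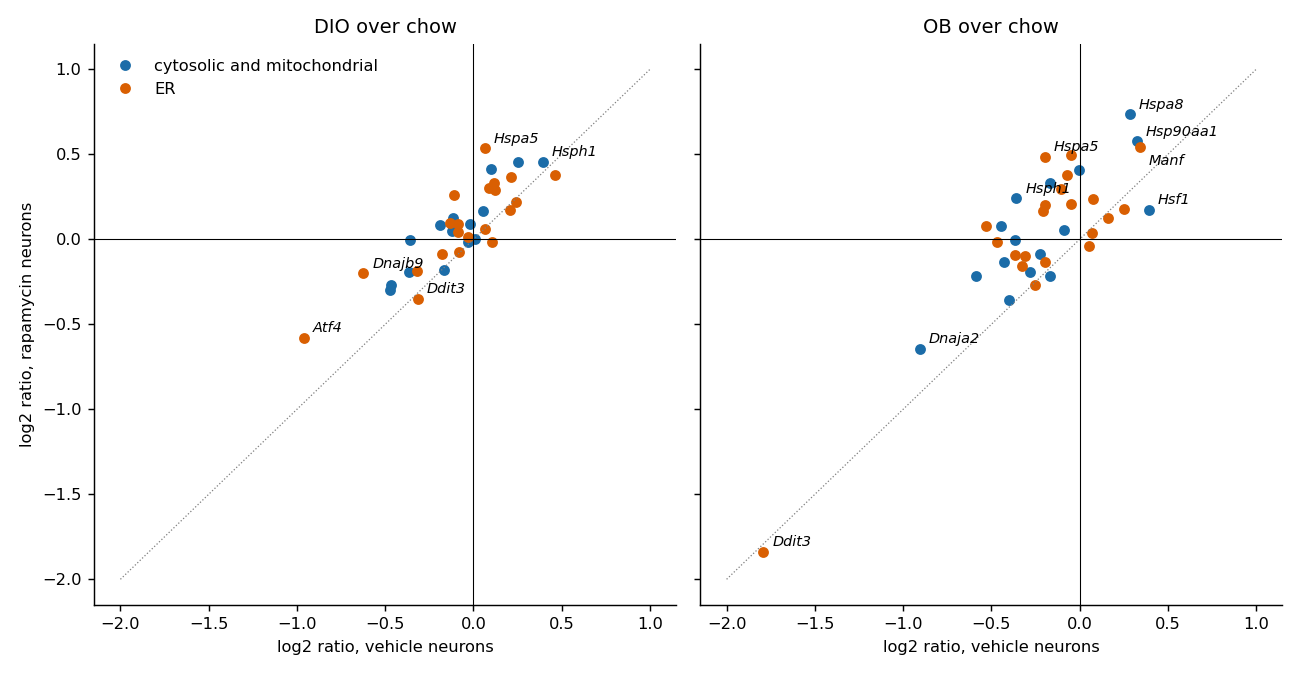
Log2 ratio of CPM over chow for each member, in rapamycin neurons (y axis) and in vehicle neurons (x axis), for DIO (left) and OB (right). Points are members, coloured by list, without Hspb1, Sdf2l1 and Bag3 for low counts, and the dotted diagonal marks equal ratios. In OB, Ddit3 lies far from the rest at -1.84 (rapamycin) and -1.79 (vehicle), and Hspa5 lies at 0.49 (rapamycin) and -0.20 (vehicle).

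The third comparison asked whether members differed between nuclei called glutamatergic and GABAergic, over 12 sums of 2 classes in 6 hashtags with the hashtag as a block. Per hashtag, 327 to 1688 nuclei were called glutamatergic and 44 to 318 GABAergic. Most neurons of each hashtag, 1071 to 3756, held neither or both genes and are left out. Of 37 members tested, edgeR called Hspa8 alone (log2 -0.33, SE 0.0838, adjusted p = 0.00348), against 11.1% of 12782 genes called and 4.51% called as lower. Hspa8 stood at 44.4 CPM in glutamatergic against 60.8 CPM in GABAergic nuclei with rapamycin and at 40.2 against 42.8 CPM with vehicle in DIO. In OB it stood at 51.3 against 79.6 CPM with rapamycin and at 50.9 against 77.7 CPM with vehicle, and in chow at 36.6 against 43.1 CPM and 35.8 against 46.3 CPM. It was lower in glutamatergic nuclei in 6 of 6 hashtags. Hsp90b1 came next (log2 -0.21, adjusted p = 0.0677 by the same test). The call of Hspa8 was lost without the hashtag block, where 0 members were called. With classes called by cluster 4 members were called, and with the tag ratio 2. Ddit3 had a log2 difference of 0.36 that missed the threshold (adjusted p = 0.119 by edgeR).

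Across neuron clusters, the ER members stood highest in the magnocellular-like cluster, whose leading genes Avp and Oxt encode vasopressin and oxytocin. It held 98 and 155 nuclei in DIO, 73 and 63 in OB and 52 and 83 in chow, with rapamycin and with vehicle. Of 21 ER members measured there, 8 were higher than in the other neurons with no overlap between the 6 hashtags of either group, and 0 of 16 cytosolic members were, against 5.51% of 12585 genes. A further 3 ER members were higher within every hashtag, making 11, against 10.2% of genes. The median fold was 1.39 for the ER list, 0.98 for the cytosolic list and 0.96 over all genes. This cluster held the highest mean of 28 clusters for 8 of 22 ER members and 0 of 18 cytosolic members. The comparison was chosen after the data were seen and is a description with no test. With hashtags called by the tag ratio 9 ER members were separate, and 10 when any 1 pool was left out. Fewer hashtags can only keep or raise this count, so the values without a pool do not show that it is stable.

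The 2 sensors IRE1 and PERK led these 8 genes. Ern1 stood at 149 CPM with rapamycin and 167 CPM with vehicle in DIO, at 171 and 166 CPM in OB, and at 124 and 165 CPM in chow, against 29.9 to 32.8 CPM in the other neurons, a median fold of 5.10. Its lowest value here exceeded the highest value of every other cluster in any hashtag, which was 99.2 CPM. Eif2ak3 stood at 89.2 CPM with rapamycin and 119 CPM with vehicle in DIO, at 63.1 and 93.2 CPM in OB, and at 57.2 and 101 CPM in chow, against 20.9 to 29.6 CPM in the other neurons, a median fold of 3.39. In each hashtag it was above every other cluster. The third sensor, Atf6, was higher by less, at 95.1 to 142 CPM against 83.6 to 88.4 CPM, a median fold of 1.34. Xbp1 stood at 79.0 and 65.8 CPM in DIO, 60.1 and 44.9 CPM in OB and 57.2 and 61.2 CPM in chow, against 23.2 to 30.1 CPM, a median fold of 2.25. The chaperones and lectins Dnajb9 (median fold 2.599), Hspa5 (1.71), Canx (1.62) and Dnajc3 (1.59) made up the rest, and Hspa5 was at 38.0 to 54.1 CPM against 20.2 to 33.5 CPM in the other neurons. Of these 8 genes, Hspa5, Canx and Dnajc3 carry the ER stress element in their windows, Ern1, Eif2ak3, Xbp1 and Dnajb9 do not, and Atf6 has no window. The other carriers, Hsp90b1, Pdia6, Calr and Syvn1, overlapped with the other neurons.

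Within magnocellular-like nuclei, Eif2ak3 was lower with rapamycin in each pool, a comparison picked after its values were seen. Its log2 ratio was -0.41 in DIO (-0.87 to 0.03), -0.56 in OB (-1.46 to 0.31) and -0.81 in chow (-1.56 to -0.12). This direction was not particular to Eif2ak3, since Atf6, Pdia6 and Sel1l were also lower in each pool, with 0 inside every interval. The ER list summed to 1261 CPM with rapamycin against 1273 CPM with vehicle in DIO, 1213 against 1188 CPM in OB and 1160 against 1295 CPM in chow, with 0 inside each interval of the ratio.

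The Pmch-like cluster, of neurons that make melanin-concentrating hormone, was measured in the 4 hashtags of DIO and chow, since OB held 8 and 11 nuclei. Of 21 ER members, 6 were higher than in the other neurons with no overlap, against 6.45% of 12207 genes. They were Xbp1 (median fold 2.16), Hyou1 (1.99), Pdia6 (1.76), Hspa5 (1.60), Pdia3 (1.57) and Canx (1.29). Xbp1 stood at 32.4 CPM with rapamycin and 48.0 CPM with vehicle in DIO and at 66.7 and 76.8 CPM in chow, against 24.4 to 31.1 CPM in the other neurons. Ern1 was at 36.04 to 44.0 CPM here against 32.3 to 37.7 CPM, so its magnocellular level was not shared by this cluster. In the cytosolic list 3 of 16 members were lower with no overlap, Hspa4l, Hsp90ab1 and Dnaja1, against 18.1% of genes. Hspa5, Canx and Xbp1 were among the separate members of both clusters.

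In the Agrp-like cluster, the feeding-promoting neurons of the arcuate nucleus, 1 of 16 cytosolic and 1 of 21 ER members were higher with no overlap. Both counts are near the share of all genes, 5.3%. Hsph1 averaged 57.5 ± 12.1 CPM in this cluster and 31.1 ± 6.13 CPM in the other neurons (SD over 6 hashtags), higher in 6 of 6. The cluster held the highest mean of all 28, but an unnamed cluster led by Ust and Bcl11b was close, at 55.6 CPM. In 2 of 6 hashtags the Agrp-like value was above every other cluster. Atf6 averaged 107 ± 4.83 CPM there and 86.4 ± 2.14 CPM in the other neurons. Hsf1 was higher in 6 of 6 hashtags, at 44.2 to 59.9 CPM against 38.8 to 51.3 CPM, with overlap. Eif2ak3 lay the other way, at 9.99 to 26.8 CPM against 25.02 to 32.7 CPM, and was lower in every hashtag.

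**Figure D5:**
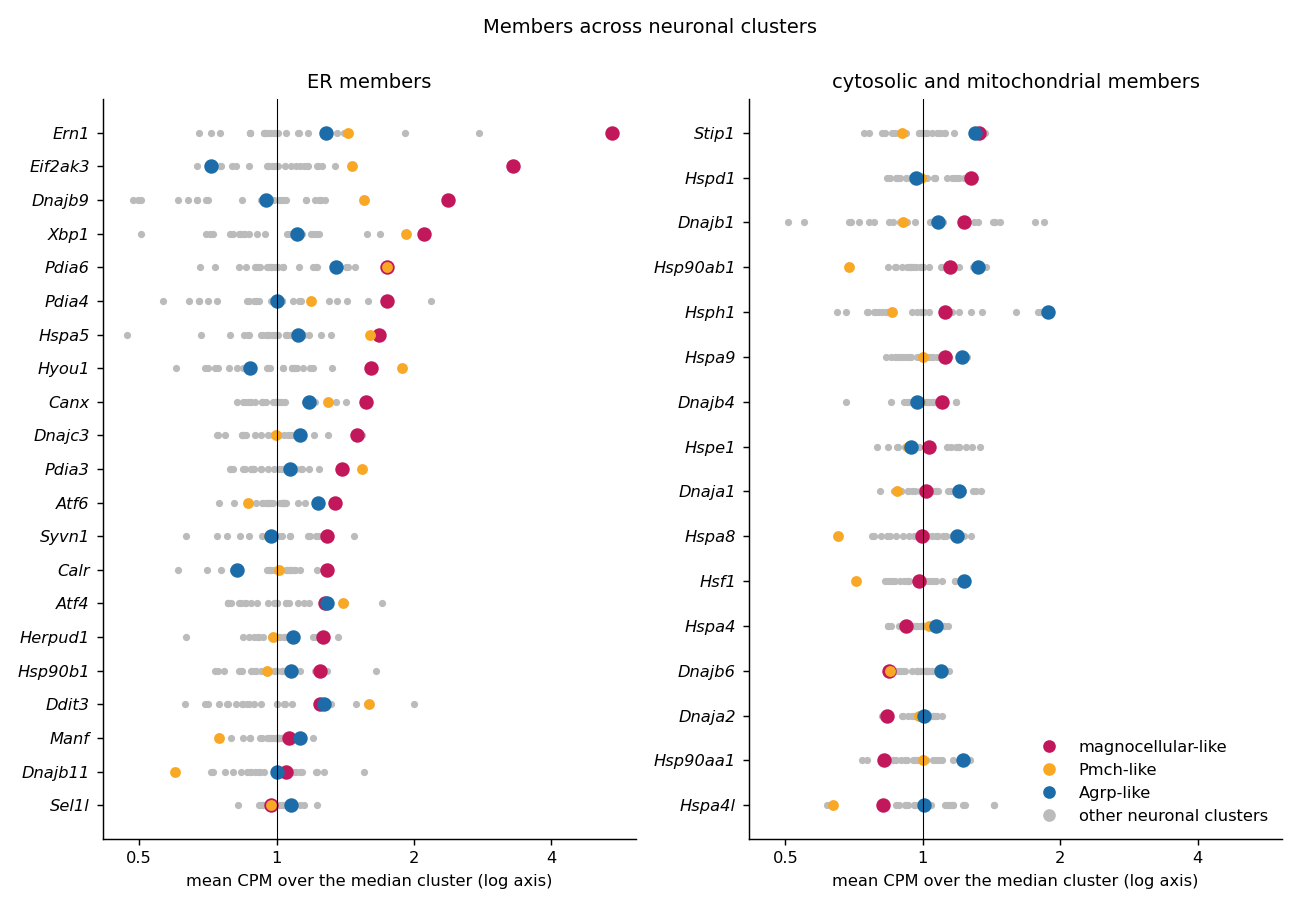
Mean CPM over hashtags of each member (rows) in each of 28 neuron clusters, divided by the median cluster (x axis, log scale), for the ER list (left) and the cytosolic list (right). Coloured points are the magnocellular-like, Pmch-like and Agrp-like clusters and grey points the others, without Hspb1, Sdf2l1 and Bag3. For Ern1 and Eif2ak3 the magnocellular-like cluster stands apart from the rest, at median folds of 5.10 and 3.39 over other neurons.

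Bag3 was concentrated in a small unnamed cluster led by E2f7, Prkch and Htr1f. It stood at 32.7 CPM with rapamycin and 41.6 CPM with vehicle in DIO, at 19.9 CPM with rapamycin in OB and at 48.3 and 35.2 CPM in chow, against 1.66 to 3.30 CPM in the other neurons of these hashtags. These values rest on 2 to 15 UMIs per hashtag. The same cluster held the lowest means of Xbp1 and Ern1. For the histaminergic-like cluster, led by Hdc, the means of Hspa5, Pdia3 and Calr were the lowest of 28 clusters, at 12.5, 36.1 and 9.90 CPM, and its mean of Atf4 was the highest, at 28.0 CPM. The orexin-like cluster, led by Hcrt, had the highest means of Hsp90ab1 (82.25 CPM), Dnajb1 (11.26 CPM), Dnajb4 (93.45 CPM) and Syvn1 (17.29 CPM). The next clusters were close, at 80.14, 10.8, 93.11 and 15.3 CPM. The orexin-like means of Dnajb1 and Syvn1 rest on 24 and 30 UMIs.

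Over the 28 cluster means, members of the ER list varied together somewhat more than other pairs. The median Pearson correlation was 0.299 among 21 ER members, 0.184 among 16 cytosolic members, 0.128 between the lists and 0.0499 over all genes with as many UMIs. The closest pair was Pdia6 and Xbp1 (r = 0.80). Clusters share libraries and depth, and the magnocellular-like and Pmch-like clusters weigh on these values, so they are a description.

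Other genes of the 2 pathways were counted from 2 further lists. Of 39 other cytosolic and mitochondrial folding genes, 25 of 34 measured were higher with rapamycin in DIO, 27 of 33 in OB and 12 of 35 in chow, with median log2 ratios of 0.08, 0.16 and -0.03. Of 44 other ER folding and stress genes, 22 of 42 were higher in DIO, 24 of 40 in OB and 10 of 42 in chow, with medians of 0.00, 0.07 and -0.05. In the fit across pools edgeR called 0 of 36 and 1 of 44, the ER-bound transcription factor gene Creb3l2, which fell. Between transmitter classes it called 0 of 33 and 2 of 38, Mbtps1, a protease that activates ATF6, and Erlec1, an ER lectin, both lower in glutamatergic nuclei. Immediate-early genes, which report recent neuronal activity and handling, had median log2 ratios with rapamycin of -0.92 in DIO, -0.31 in OB and -0.01 in chow, and their part in the member ratios was not tested.

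Nuclei of non-neuronal clusters, which the sort for NeuN should have removed, held members at higher levels than neurons about as often as other genes. Of 22 ER members 6, and of 18 cytosolic members 4, were higher in non-neuronal nuclei in all 6 hashtags, against 21.2% of 12890 genes. Without overlap between the 6 hashtags of either kind, 3 ER members (Dnajc3, Pdia4 and Dnajb9) and 2 cytosolic members (Dnajb6 and Bag3) were higher, against 15.1% of genes. Dnajc3 stood at 86.9 to 160 CPM in non-neuronal nuclei and 40.5 to 50.3 CPM in neurons, and Bag3 at 11.1 to 25.3 CPM and 1.73 to 3.56 CPM. Hsp90aa1 varied widely among non-neuronal sums, from 42.7 to 529 CPM, against 39.0 to 66.8 CPM in neurons. These sums mix glial, vascular and pituitary clusters in shares that differ between hashtags.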

How the data were processed

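Single-nucleus UMI counts and hashtag counts came from the deposited matrices, raw counts per gene that the authors made with Cell Ranger, at version 6.0.0 for DIO and chow and 7.0.1 for OB per the file headers, on mm10 per the submitters' processing notes. Sequencing settings beyond this are not given in the sources used here. The deposited key assigns 1 tag to rapamycin and 1 to vehicle. Nuclei with at least 500 UMIs, 300 genes and under 5% mitochondrial UMIs were kept (1 removed, in OB). HTODemux of Seurat 5.3.0 (R 4.3.3, positive quantile 0.99) removed 450, 622 and 542 doublets between hashtags in DIO, OB and chow, and doublets within a hashtag cannot be seen. Barcodes shared between pools numbered 31 to 38.

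Clusters (scanpy 1.11.5, leidenalg 0.10.2, Python 3.11.15) used 3000 variable genes without the 40 members, 40 components, 20 neighbours and resolution 1.0, and gave 38 clusters, 28 of them neuronal. Those with at least 3 fixed markers over 3-fold and in over 10% of nuclei were named, 7 of the neuronal ones. UMIs were summed per hashtag and scaled to CPM. Ratios carry exact conditional 95% intervals (scipy 1.17.1), and 3 UMIs set the floor, 0.0883 to 0.518 CPM. Neurons in the 6 sums numbered 5721 and 4312 in DIO, 4584 and 1442 in OB, and 4669 and 4960 in chow, with rapamycin and with vehicle.

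Differences were tested by the quasi-likelihood method of edgeR 4.0.16 after filterByExpr and TMM scaling, at an adjusted p of 0.05 or less, with DESeq2 1.42.0 as the alternative. The pool, or the hashtag for transmitter classes, was a block because both sums of a pair come from the same pool or the same hashtag. Data were also simulated for the transmitter fit with the same dispersion for all genes, set in advance and not estimated from these sums. They held no difference between hashtags apart from depth and, for a changed gene, the same change in every hashtag. On them the transmitter fit found 49% of genes changed 1.5-fold. It found 71% of those changed 2-fold. P-values rest on the spread between these samples, with each gene's variance drawn toward that of other genes. For 1 gene they therefore do not measure its own spread between pools or hashtags. Genes named for a comparison are, of the members holding 50 UMIs or more, those 10 that rank first and those 10 that rank last by ratio, then 10 further members whatever their value, and every member called. Other members, and all clusters but those of each member's highest and lowest mean, were named after their values were seen. The members and lists were chosen with earlier results of these data known. Alternatives covered the hashtag call, scaling, count minimum, weights of clusters and nuclei, all assigned nuclei, the list of Dnajc3, the tool, filter, block and leaving out each pool.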

Additional observations from a re-analysis of the deposited data

Results flagged for a closer look

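In each case below, 1 hashtag's log2 ratio of glutamatergic over GABAergic CPM stood apart from those of the other 5 hashtags, by a gap test that chance passes in about 1 of 20 groups, over 40 members. In OB vehicle, where GABAergic sums were smallest, these were Hsph1 at 0.88 (44 against 3 UMIs, other hashtags -0.33 to -0.01), Hspa9 at 0.75 (120 against 9 UMIs), Stip1 at 0.52 (57 against 5 UMIs), Canx at 0.40 (126 against 12 UMIs), Pdia4 at -1.77 (7 against 3 UMIs) and Ddit3 at -1.99 (4 against 2 UMIs). In OB rapamycin it was Hsp90ab1 at -0.46 (239 against 62 UMIs, other hashtags -0.05 to 0.17).

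Rapamycin ratios lay on opposite sides of 0 in 2 pools in the following cases, and the difference itself was not tested. For single genes, each whole 95% interval for counting error lay on its own side. The median log2 ratio of the cytosolic list was 0.13 in DIO and 0.20 in OB, against -0.08 in chow. Its interval runs over members that share the same hashtags, so it does not measure spread between samples. Medians over all genes measured lay on the same sides of 0, at 0.04 in DIO, 0.04 in OB and -0.03 in chow. The list interval therefore cannot decide whether the list itself differs between pools. Hsp90ab1 stood at 0.16 in DIO and 0.29 in OB, against -0.12 in chow. Hspe1 was at 0.22 in DIO, against -0.14 in chow, and Stip1 at 0.34 in OB, against -0.16 in chow.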

How the results depend on the processing

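List medians with rapamycin kept their sign in all 3 pools with hashtags called by the tag ratio, TMM scaling, a minimum of 20 UMIs, equal cluster weights, means per nucleus and Dnajc3 in the cytosolic list. With all assigned nuclei, of which neurons are a smaller share in OB vehicle, the OB medians were -0.0106 (cytosolic) and -0.00 (ER), and OB ratios turned for Hspa8 (-0.14), Hsp90ab1 (-0.31), Bag3 (-0.46), Hspa5 (-0.0761), Pdia4 (-0.18) and Dnajb9 (-0.0567). In DIO over chow vehicle neurons the ER median turned to 0.0183 with Dnajc3 in the cytosolic list. In OB over chow vehicle nuclei, Hsph1 (0.0670), Bag3 (1.39) and Dnajc3 (0.41) turned likewise and the ER median was 0.0821. Of 48 member ratios past 1.2-fold, 39 kept their direction with all nuclei and 48 under each of the other 4 alternatives run for them. With rapamycin in place of vehicle hashtags, cytosolic medians were 0.0865 (DIO over chow) and 0.0570 (OB over chow), and the ER median of OB over chow was 0.12.

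In the fit across pools, members called numbered 1, but 0 with DESeq2, with no filter, without the replicate block, with the tag ratio and with all nuclei, and 0 to 2 without 1 pool. DESeq2 and the fit without the block called 0 genes of any kind. Between transmitter classes 1 was called, but 0 without the replicate block, 4 with classes by cluster and 2 with the tag ratio. For magnocellular-like neurons, under alternatives added after seeing the data, ER members higher without overlap numbered 8 to 10 and cytosolic members 0 to 1, the 1 without DIO. Leaving out a pool can only keep or raise these 2 counts. The cause of the other changes was not tested. OB vehicle held the fewest UMIs, which limits its ratios most.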
